A study of Mus musculus with 9 samples.

Results

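A group of 10 genes that mark the identity of thalamic relay neurons was followed in microdissected dorsal geniculate tissue (dLGN, the relay between retina and visual cortex) of wild-type C57BL/6J mice. The genes were taken by symbol from the deposited tables, and all 10 (Tcf7l2, Lef1, Gbx2, Foxp2, Zfhx3, Rora, Rorb, Slc17a6, Slc17a7 and Prkcd) were found among the 19703 genes listed for every light time. All mice, of both sexes, were reared in the dark from postnatal day 20 and dissected at postnatal day 27, the controls too. They were exposed to light for 0 h, 1 h or 8 h before dissection, with 3 libraries of ribosome-depleted total RNA per light time. The labels describe the libraries of a light time as 3 mice handled as separate samples, but 7 of the 9 libraries held both Xist, the RNA of the inactive X chromosome, and the summed RNA of 4 Y-linked genes above 5 CPM (reads per gene scaled to library size). A library of a single mouse would hold only 1 of these, as the remaining 2 libraries did (1 each way), so the number of mice behind a library is unclear and n counts libraries throughout. The study asked which genes the return of visual experience changes early and late, and here the same question was put to the genes that define the relay cell.

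Relay neurons of the thalamus are glutamatergic cells that pass sensory signals to the cortex. In the mouse their identity is set after the last cell division by transcription factors such as TCF7L2, a DNA-binding partner of beta-catenin in Wnt signalling, and GBX2, and it is read out by effector genes such as the vesicular glutamate transporter VGLUT2 (Slc17a6) and the kinase PKC-delta (Prkcd), which is typical of sensory relay nuclei. Several of these genes are also used by other brain cells: VGLUT1 (Slc17a7) is the main transporter of cortical and hippocampal excitatory neurons, TCF7L2 is made by maturing oligodendrocytes, and LEF1 is made by brain endothelium.

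The genes lie on 8 chromosomes, and all 10 are protein-coding genes in the GENCODE annotation of the GRCm38 build. The authors' deposited coding flag differs for Tcf7l2, at 0, while it is 1 for the other members. Prkcd spans chr14:30595354-30626208 on the minus strand, Gbx2 chr1:89927962-89931176 on the minus strand and Tcf7l2 chr19:55741810-55933659 on the plus strand. The 250 bases before the transcription start are shown for Prkcd, the member that passed a test between light times, for Gbx2, the member that varied most between libraries, and for Tcf7l2, the regulator that heads the group. They are taken from RefSeq (GRCm38.p6) and printed 5′ to 3′ on the gene's own strand. Capitals mark GC boxes (GGGCGG on either strand, bound by SP1-type factors) and a TATAAA run. The windows are chr14:30626209-30626458 (minus strand) for Prkcd, chr1:89931177-89931426 (minus strand) for Gbx2 and chr19:55741560-55741809 (plus strand) for Tcf7l2.
Prkcd: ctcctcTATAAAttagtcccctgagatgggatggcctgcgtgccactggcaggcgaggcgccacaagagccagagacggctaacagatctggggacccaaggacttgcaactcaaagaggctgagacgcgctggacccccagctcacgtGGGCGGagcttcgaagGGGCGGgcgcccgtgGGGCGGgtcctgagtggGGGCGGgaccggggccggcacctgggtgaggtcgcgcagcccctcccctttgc
Gbx2: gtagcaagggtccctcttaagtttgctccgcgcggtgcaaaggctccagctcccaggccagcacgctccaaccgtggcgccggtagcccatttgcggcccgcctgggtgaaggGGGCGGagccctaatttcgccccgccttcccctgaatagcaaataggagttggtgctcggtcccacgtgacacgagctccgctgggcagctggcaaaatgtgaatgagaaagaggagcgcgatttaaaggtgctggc
Tcf7l2: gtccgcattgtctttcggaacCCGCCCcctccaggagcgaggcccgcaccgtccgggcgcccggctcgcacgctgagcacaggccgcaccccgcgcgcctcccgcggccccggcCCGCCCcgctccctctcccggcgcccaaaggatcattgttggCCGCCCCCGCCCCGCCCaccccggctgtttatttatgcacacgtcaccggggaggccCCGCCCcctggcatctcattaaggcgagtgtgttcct

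The Prkcd window held 4 GC boxes, the Tcf7l2 window 6 and the Gbx2 window 1, and the TATAAA run of Prkcd began 244 bases before the start. In total 9 of the 10 members had at least 1 start-site window in the RefSeq table, 16 windows together, and Foxp2 had none there. None of the 16 held the TCF/LEF letters CTTTGAT or the ROR letters TAGGTCA or TGGGTCA on either strand. Of 32851 windows of all genes, 3.21% held the first and 5.38% held the second. The cyclic AMP response element TGACGTCA, found in 1.55% of all windows, and the AP-1 letters TGAGTCA or TGACTCA, found in 4.46%, were also not found in the members' windows. GC boxes, which 32.7% of all windows hold, were present in 9 of the 16 windows, belonging to 7 members. Windows of 1 gene can overlap, and Lef1 gave 3 of the 9. These matches describe letters in a short window and say nothing of binding.

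Total gene counts per library ran from 5728295 to 22587209 reads, so that 3 reads, taken as the floor of detection, correspond to between 0.133 and 0.524 CPM of these unscaled totals. Levels are given as CPM with library sizes scaled by TMM over the 9 libraries. Members were counted with at least 39 reads (Gbx2 in 0 h replicate 1) and up to 37529 reads (Rora in 8 h replicate 1) in a library. Early activity genes gave a check of the light stimulus: Fosb, which encodes an AP-1 factor, averaged 8.06 CPM at 1 h and 0.674 CPM at 0 h (log2 fold change 3.49 ± 0.41, SE, edgeR adjusted p = 0.0427). Of the 6 activity genes listed, 2 passed at 1 h (Fosb and Fosl2) and 4 at 8 h (Fosb, Egr1, Nr4a1 and Fosl2) against 0 h, all higher with light. Npas4 passed between 8 h and 1 h, with the lower level at 8 h. At 1 h all 6 had a log2 fold change above 0 and an unadjusted p under 0.05, a level that 3.2% of all tested genes reached. Fos, at 2.01 ± 0.37 (SE, edgeR adjusted p = 0.259), did not pass at 1 h. There were 3 libraries that stood apart by Neurod6, a gene of cortical and hippocampal neurons, which reached 18.3 CPM in replicate 2 at 0 h, 13.9 CPM in replicate 1 at 1 h and 3.61 CPM in replicate 1 at 8 h, against at most 0.735 CPM in the other 6. The summed level of all 8 cortical and hippocampal markers ran from 14.3 to 61.4 CPM at 0 h, from 14.5 to 58.0 CPM at 1 h and from 16.5 to 23.1 CPM at 8 h, with Emx1 and Fezf2 at 0 in at least 1 library. At 8 h this sum was 23.0 CPM in replicate 1 and 23.1 CPM in replicate 2, so the 8 markers together did not set replicate 1 apart. Markers of inhibitory neurons of the dLGN and its neighbours (15 genes, with Dlx5, Dlx6 and Isl1 at 0 in at least 1 library) summed to between 175 and 512 CPM at 0 h, 221 and 372 CPM at 1 h and 367 and 561 CPM at 8 h. Gad2, which makes GABA, was lowest at 55.1 CPM in 0 h replicate 2 and highest at 173 CPM in 0 h replicate 3. The sum of the 15 was likewise lowest in 0 h replicate 2 (175 CPM) but highest in 8 h replicate 1 (561 CPM). None of the lists of cortical, inhibitory, habenular, oligodendrocyte, astrocyte, microglial or endothelial markers held a gene that passed in any comparison. Of all tested genes, 0.0132% passed at 1 h and 0.587% at 8 h against 0 h, and 0.603% between 8 h and 1 h. Lists this short therefore cannot show that the mix of cells was alike. At 8 h against 0 h, 3 of 6 microglial markers had an unadjusted p under 0.05 (edgeR), beside 10.2% of all tested genes. Only 1 of the 6 had a log2 fold change above 0. In tissue of mixed cells, fewer relay neurons and less RNA per relay neuron cannot be told apart.

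Compared per length, as CPM per kilobase of exon, Prkcd was the most abundant member in all 9 libraries, with a median of 316 (range 281 to 405). Slc17a7, Rora and Slc17a6 followed with medians of 144, 143 and 103. The ranges of Slc17a7 and Rora overlapped, with Slc17a7 above Rora in 7 of 9 libraries. Those of Rora and Slc17a6 overlapped as well, although Rora was above Slc17a6 within each of the 9. Tcf7l2 stood at a median of 47.4 (39.2 to 54.1), clear of its neighbours on either side. Zfhx3, Lef1 and Rorb had medians of 28.2, 23.6 and 20.7 on the same scale. Lef1 overlapped both of the others in range, while Zfhx3 lay above Rorb in every library. Gbx2 and Foxp2 were lowest, at medians of 8.24 (3.12 to 19.1) and 6.76 (4.59 to 10.2), and Gbx2 was above Foxp2 in 7 of 9 libraries. Every one of the 10 genes was therefore well above the floor of detection in the tissue, the least of them being Gbx2 at 6.63 CPM in 0 h replicate 1.

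**Figure D1:**
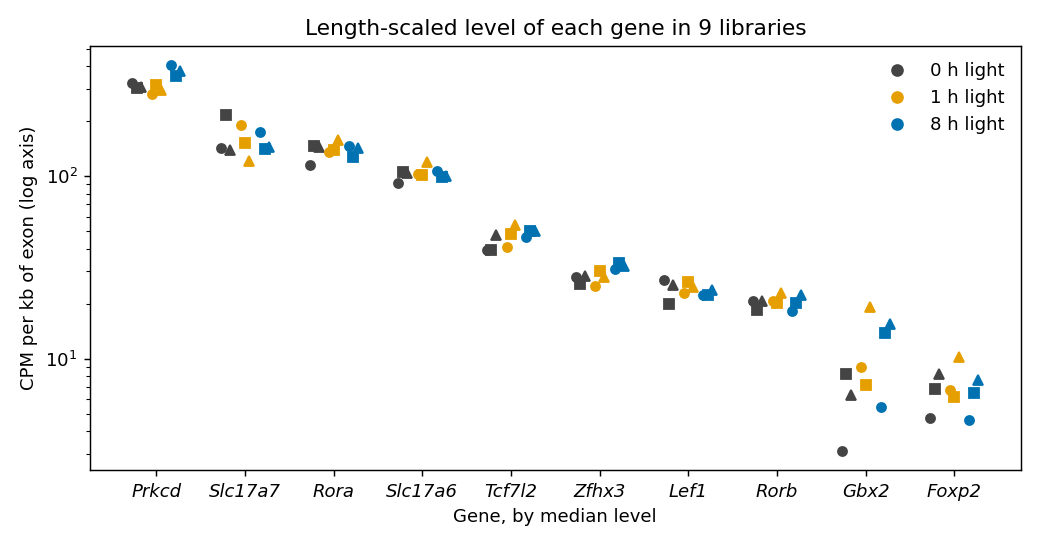
Level of each member as CPM per kilobase of exon (log axis), with 1 symbol per library (circle, square and triangle for replicates 1, 2 and 3) and colours for 0, 1 and 8 h of light. Prkcd lies above all other members in every library, and the Gbx2 symbols are spread from 3.12 to 19.1.

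Most of the relay identity genes did not pass a test between light times, which does not show that their levels were equal. After 1 h, none of the 10 members passed the edgeR test against 0 h (quasi-likelihood test, Benjamini-Hochberg adjusted p under 0.05 over 15164 genes), where 0.0132% of all tested genes passed. After 8 h, none of the 10 passed against 0 h, where 0.587% of 15330 tested genes passed (0.528% higher and 0.0587% lower at 8 h). Between 8 h and 1 h, 1 member passed, Prkcd, which was higher at 8 h, where 0.603% of 15586 tested genes passed (0.507% higher and 0.0962% lower). At an unadjusted p under 0.05, 1 member stood at 1 h (Gbx2), where 3.2% of all genes did (1.9% higher), and 4 members at 8 h (Prkcd, Zfhx3, Tcf7l2 and Gbx2, all with higher means at 8 h), where 10.2% did (5.9% higher). Between 8 h and 1 h there were 2 at that level (Prkcd and Zfhx3), where 8.9% of all genes were (4.81% higher). With DESeq2, 2 members passed at 8 h against 0 h, where 2.07% of genes did, and Prkcd passed between 8 h and 1 h, where 1.63% did. DESeq2 called 0 members at 1 h against 0 h, where 0.104% of genes passed. The median log2 fold change of the members was 0.10 at 1 h and 0.04 at 8 h against 0 h, beside 0.0028 and -0.0047 over all tested genes, and -0.05 between 8 h and 1 h, beside -0.0063. The 1 h and 8 h comparisons share their 0 h libraries.

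The intervals say how large a change the libraries allow. The 95% interval of the fold change, not adjusted for the number of genes, lay within 1.5-fold either way for 8 members at 1 h and for 9 at 8 h against 0 h, and for 8 between 8 h and 1 h. Over all tested genes this held for 72.1%, 71.1% and 71.3%. The exceptions were Gbx2 in each comparison, and Foxp2 at 1 h and between 8 h and 1 h. Across all 9 libraries, the standard deviation of log2 CPM was smallest for Slc17a6 at 0.10 and Rorb at 0.11. The median over tested genes was 0.15. The largest were those of Gbx2 at 0.82, Foxp2 at 0.36 and Slc17a7 at 0.26. Prkcd and Tcf7l2, at 0.17 each, were also above the median, and Zfhx3, Rora and Lef1 were below it.

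**Figure D2:**
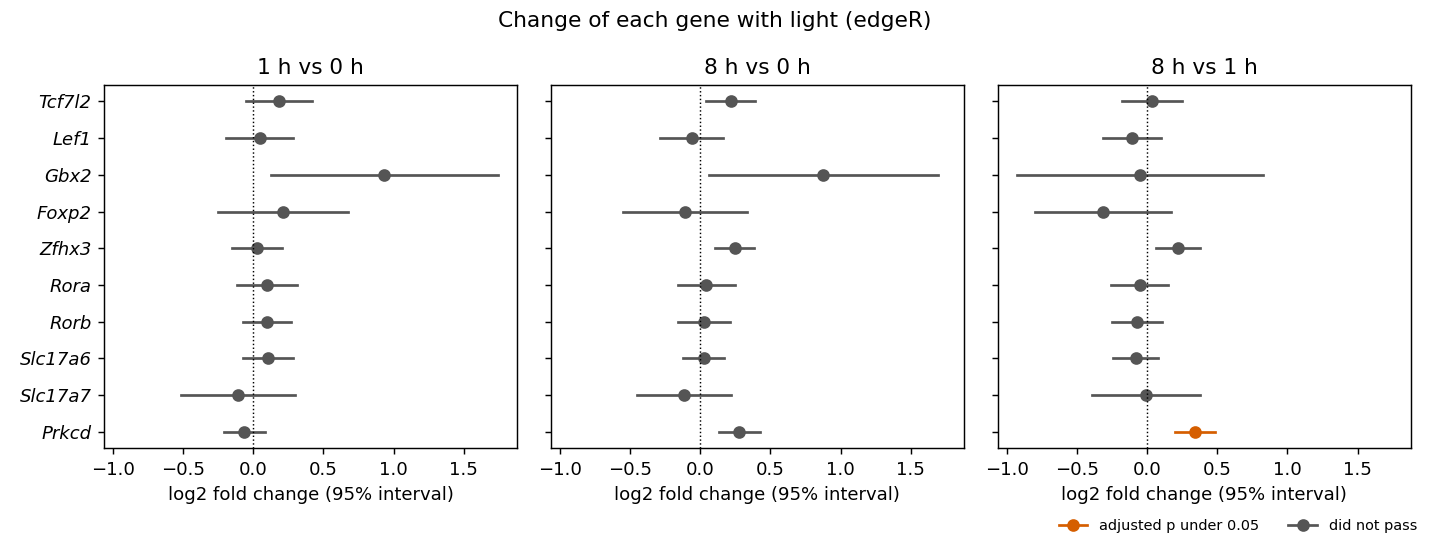
Log2 fold change of each member with its 95% interval for 1 h against 0 h, 8 h against 0 h and 8 h against 1 h, from edgeR fits over all genes. Prkcd between 8 h and 1 h (0.34) is the value that passed, and the intervals of Gbx2 are the widest.

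**Figure D3:**
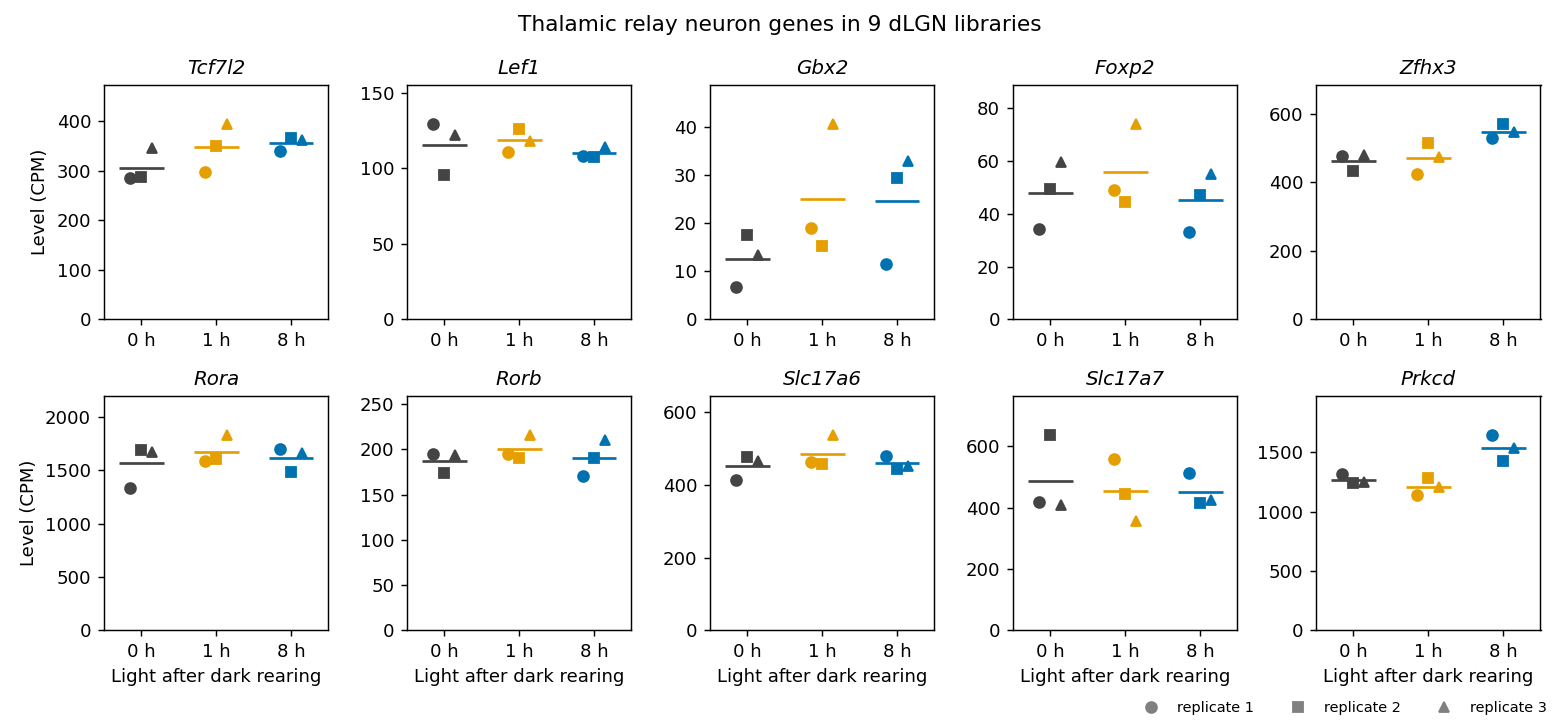
Level (CPM) of each member in every library at 0, 1 and 8 h of light, with replicates 1, 2 and 3 as circle, square and triangle and the group mean as a line. The 8 h symbols of Prkcd and Zfhx3 lie above all their 0 h and 1 h symbols, while those of Slc17a6, Rora and Rorb overlap between light times.

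Prkcd encodes PKC-delta, a diacylglycerol-activated kinase. It stood at 1315, 1242 and 1251 CPM at 0 h, at 1144, 1284 and 1208 CPM at 1 h, and at 1646, 1428 and 1536 CPM at 8 h (replicates 1 to 3). All 8 h libraries were above all libraries of both earlier times, and the 0 h and 1 h libraries overlapped. Between 8 h and 1 h the mean was 1537 ± 109 CPM at 8 h and 1212 ± 69.8 CPM at 1 h (mean ± SD of 3 libraries per time), which is 0.34 ± 0.07 on the log2 scale (SE, edgeR adjusted p = 0.0409) or 1.27-fold, with a 95% interval from 1.15 to 1.40. Against 0 h, with a mean of 1537 ± 109 CPM at 8 h and 1269 ± 39.9 CPM at 0 h (mean ± SD of 3 libraries per time), the log2 fold change was 0.28 ± 0.07 (SE, edgeR adjusted p = 0.119), which did not pass, while DESeq2 called it (adjusted p = 0.00476). The authors' deposited table gives Prkcd at 8 h a fold of 1.22 and an FDR of 0.0547. At 1 h against 0 h its log2 fold change was -0.07 ± 0.07 (SE, edgeR adjusted p = 1.00).

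The Prkcd call between 8 h and 1 h was held by a narrow margin. It was kept in 7 of 17 alternatives, with log2 fold changes between 0.25 and 0.39 in all of them and adjusted p between 0.000230 and 0.378. It was lost when any single library was left out except 0 h replicate 2 or 1 h replicate 2. The adjusted p was 0.203 without 1 h replicate 1, 0.173 without 1 h replicate 3, and 0.168, 0.0742 and 0.116 without 8 h replicates 1, 2 and 3. Without 0 h replicate 1 or 3 it was 0.0560 or 0.0546. Without the 3 libraries with the most Neurod6, the log2 fold change was 0.25 (adjusted p = 0.378). The summed level of the inhibitory markers was 367 to 561 CPM at 8 h and 221 to 372 CPM at 1 h, ranges that overlap narrowly. Of the 13 inhibitory markers tested between 8 h and 1 h, 10 had a log2 fold change above 0. Their median was 0.65, beside -0.0063 over all tested genes. An unadjusted p under 0.05 (edgeR) was reached by 4 of the 13, beside 8.9% of all tested genes. The part of these markers' cells in the Prkcd result was not tested. Prkcd carried 7739 to 36440 reads in a library, so counting error is small beside the spread between libraries.

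Zfhx3 encodes a large zinc finger and homeodomain transcription factor that is known in the mouse for setting circadian rhythm in the hypothalamus. Its levels were 475, 434 and 478 CPM at 0 h, 425, 514 and 473 CPM at 1 h, and 528, 570 and 546 CPM at 8 h. As for Prkcd, the 8 h libraries lay above all others. The mean was 548 ± 20.9 CPM at 8 h and 462 ± 25.0 CPM at 0 h (mean ± SD of 3 libraries per time). The log2 fold change was 0.25 ± 0.06 (SE, edgeR adjusted p = 0.140), which did not pass. DESeq2 called it (adjusted p = 0.0191). Between 8 h and 1 h the log2 fold change was 0.22 ± 0.07 (SE, edgeR adjusted p = 0.318). Prkcd and Zfhx3 were the 2 members whose groups did not overlap between 8 h and 0 h, where those of 16.2% of all tested genes did not (8.37% with 8 h higher), and between 8 h and 1 h, where the share was 15.3% (8.34% with 8 h higher). No member's groups were apart at 1 h against 0 h, where the share was 8.68% (4.29% with 1 h higher).

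Tcf7l2 and Lef1 encode HMG-box transcription factors that act with beta-catenin at Wnt target genes. Tcf7l2 stood at 286, 287 and 346 CPM at 0 h, 298, 350 and 395 CPM at 1 h, and 340, 366 and 363 CPM at 8 h. The 8 h libraries were close together and overlapped the highest 0 h library. The log2 fold change was 0.18 ± 0.11 at 1 h (SE, edgeR adjusted p = 1.00) and 0.22 ± 0.08 at 8 h (SE, edgeR adjusted p = 0.352) against 0 h. Lef1 ranged from 95.6 to 129 CPM at 0 h, from 111 to 126 CPM at 1 h and from 108 to 114 CPM at 8 h, with a log2 fold change of -0.06 ± 0.10 at 8 h against 0 h (SE, edgeR adjusted p = 0.893). Cldn5, a junction gene of the endothelium in which Lef1 is also made, averaged 21.7 CPM at 8 h and 32.0 CPM at 0 h, with a log2 fold change of -0.54 (edgeR adjusted p = 0.107). It had the largest change at 8 h of the 5 endothelial markers, the others lying between -0.24 for Pecam1 and 0.06 for Slco1a4. Their summed level ran from 148 to 157 CPM at 0 h, from 130.4 to 185 CPM at 1 h and from 131 to 145 CPM at 8 h, and its part in the Lef1 level was not tested. Lef1 shares 1208 of its 8788 annotated exonic bases (13.75%) with the transcript Gm43352 on the other strand, and whether counting used strand is unknown. Of the 8 markers of oligodendrocytes, where Tcf7l2 is also made, 0 had a log2 fold change above 0 at 1 h and 1 did at 8 h against 0 h. None of the 8 passed (edgeR), and 4 and 2 had an unadjusted p under 0.05, beside 3.2% and 10.2% of all tested genes. Over all tested genes, 7724 of 15164 had a log2 fold change above 0 at 1 h and 7471 of 15330 at 8 h. Opalin, a myelin gene, stood at -0.42 at 8 h (edgeR adjusted p = 0.124), while Mbp, another, lay between 7749 and 9138 CPM in all libraries. The summed level of the 8 ran from 23626 to 25555 CPM at 0 h, from 22181 to 24338 CPM at 1 h and from 21867 to 24886 CPM at 8 h, and its part in the Tcf7l2 level was not tested.

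The other genes of the Wnt and TCF pathway showed no call. Of 13 listed genes (Ctnnb1, Tcf7, Tcf7l1, Axin2, Nkd1, Znrf3, Rnf43, Lgr5, Notum, Sp5, Apcdd1, Tle1 and Tle4), 12 were tested, and 0 passed at 1 h or 8 h against 0 h or between them (edgeR). At an unadjusted p under 0.05 there were 2, 4 and 2 in these comparisons, beside 3.2%, 10.2% and 8.9% of all tested genes. The median log2 fold changes of the list were -0.05, -0.08 and 0.03. Ctnnb1, which encodes beta-catenin, stood between 701 and 766 CPM, and Axin2, a feedback target of the pathway, between 34.1 and 51.0 CPM. Against 0 h, the largest log2 fold changes at each time were those of Rnf43, a ligase that removes Wnt receptors, at 1 h (-0.46 ± 0.16, SE, adjusted p = 1.00), and of Notum, a secreted Wnt inhibitor, at 8 h (0.52 ± 0.20, SE, adjusted p = 0.389). Next came Tcf7, a relative of Lef1, at 1 h (-0.41 ± 0.29, SE, adjusted p = 1.00) and Lgr5, an R-spondin receptor, at 8 h (0.40 ± 0.11, SE, adjusted p = 0.178). Notum also had the largest change between 8 h and 1 h (0.72 ± 0.25, SE, adjusted p = 0.337).

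Gbx2, a homeobox gene that thalamic neurons of the mouse embryo need for their differentiation, was the most variable member. It stood at 6.63, 17.5 and 13.4 CPM at 0 h, at 19.0, 15.3 and 40.7 CPM at 1 h, and at 11.5, 29.4 and 32.9 CPM at 8 h. The highest library was 6.14 times the lowest, and the groups overlapped. The mean at 1 h was 25.0 ± 13.7 CPM, against 12.5 ± 5.50 CPM at 0 h (mean ± SD of 3 libraries per time). The log2 fold change was 0.93 ± 0.37 (SE, edgeR adjusted p = 1.00), and the log2 fold change was 0.37 without 1 h replicate 3. At 8 h against 0 h the log2 fold change was 0.88 ± 0.37 (SE, edgeR adjusted p = 0.446), with a 95% interval of the fold from 1.04 to 3.24. It was called without 0 h replicate 2 and 8 h replicate 1, the libraries of that comparison with the most Neurod6 (1.52, adjusted p = 0.00355), and with a block for the replicate number (0.97, adjusted p = 0.00481). The 2 libraries left out also held the highest Gbx2 level at 0 h (17.5 CPM) and the lowest at 8 h (11.5 CPM). Leaving them out therefore widens the difference whatever their Neurod6 level. Gbx2 shares 946 of its 2177 annotated exonic bases (43.45%) with the transcript D130058E05Rik on the other strand. Whether counting used strand was not stated in the sources used here, so its count is uncertain.

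Foxp2, a forkhead transcription factor found in thalamus, striatum and deep cortex, varied along with Gbx2 in part of the libraries. Its levels were 34.2, 49.4 and 59.8 CPM at 0 h, 49.0, 44.5 and 74.1 CPM at 1 h, and 33.3, 47.2 and 55.2 CPM at 8 h. Both genes were highest in 1 h replicate 3, and both were lowest or next to lowest in 0 h replicate 1 and 8 h replicate 1. Calb2, which encodes calretinin and was singled out here after its values were seen, was likewise highest in replicate 3 at 1 h, and had 44.9 CPM in replicate 1 at 0 h and 30.3 CPM in replicate 1 at 8 h. The log2 fold change of Foxp2 was 0.21 ± 0.21 at 1 h (SE, edgeR adjusted p = 1.00) and -0.11 ± 0.20 at 8 h (SE, edgeR adjusted p = 0.906) against 0 h.

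**Figure D4:**
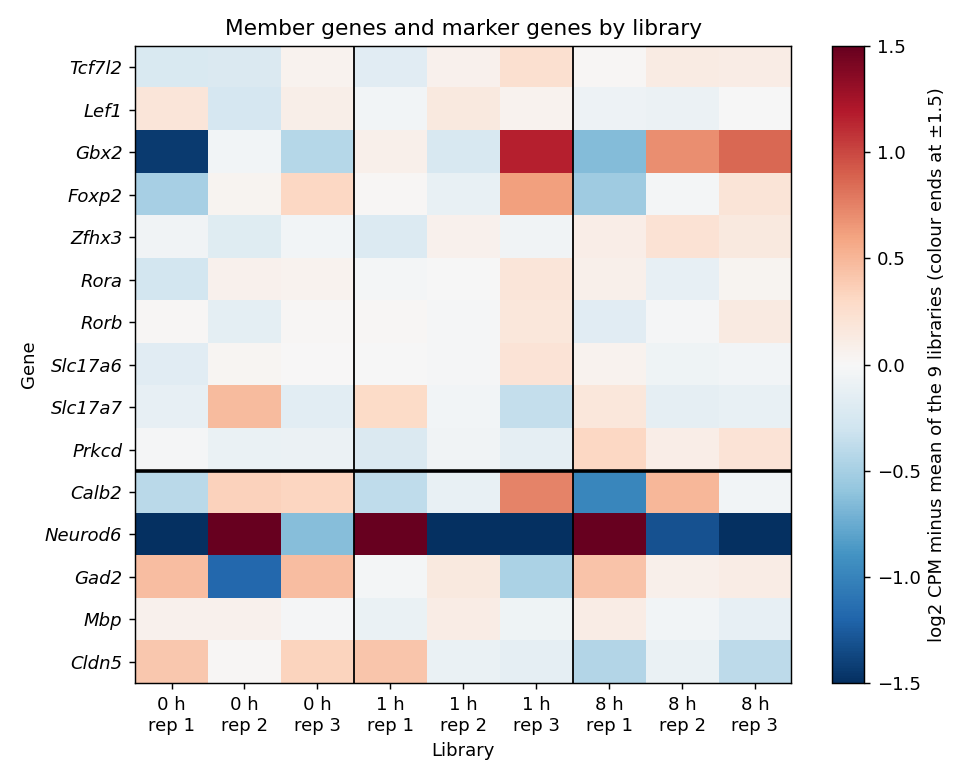
Log2 CPM of each gene minus its mean over the 9 libraries, with the members above the line and Calb2, Neurod6, Gad2, Mbp and Cldn5 below it (columns are libraries, and colours end at 1.5 either way, which Neurod6 exceeds). Gbx2 (from 6.63 to 40.7 CPM) shows the strongest colours among the members, and Slc17a7 is highest in 0 h replicate 2 and 1 h replicate 1, where Neurod6 is highest.

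Rora and Rorb encode orphan nuclear receptors that bind ROR elements, and Rorb is also a marker of sensory relay nuclei and of the cortical layer they project to. Rora stood at 1332, 1691 and 1673 CPM at 0 h, 1583, 1607 and 1828 CPM at 1 h, and 1696, 1482 and 1659 CPM at 8 h. Rorb lay between 174 and 194 CPM at 0 h, 190 and 216 CPM at 1 h, and 171 and 210 CPM at 8 h. The light times overlapped for both genes. Against 0 h, the log2 fold change of Rora was 0.10 ± 0.10 at 1 h and 0.04 ± 0.09 at 8 h, and that of Rorb was 0.10 ± 0.08 at 1 h and 0.03 ± 0.08 at 8 h (SE, edgeR adjusted p from 0.920 to 1.00). The 95% interval of the fold at 8 h ran from 0.896 to 1.19 for Rora and from 0.896 to 1.16 for Rorb.

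The 2 vesicular glutamate transporters load glutamate into synaptic vesicles. Slc17a6 (VGLUT2) stood at 413, 475 and 466 CPM at 0 h, 462, 457 and 536 CPM at 1 h, and 480, 444 and 451 CPM at 8 h, with overlap of all light times. Its log2 fold change was 0.11 ± 0.08 at 1 h and 0.02 ± 0.07 at 8 h against 0 h (SE, edgeR adjusted p = 1.00 and 0.942), and the 95% interval of the fold at 8 h ran from 0.919 to 1.12. Slc17a7 (VGLUT1) stood at 419, 637 and 409 CPM at 0 h, 560, 445 and 357 CPM at 1 h, and 514, 416 and 424 CPM at 8 h. Its highest library at each light time was the one with the most Neurod6 at that time. At 8 h, however, the summed cortical and hippocampal markers were alike in replicates 1 and 2 (23.0 and 23.1 CPM). The part of cortical or hippocampal RNA in the Slc17a7 level was not tested. Against 0 h its log2 fold change was -0.11 ± 0.18 at 1 h and -0.12 ± 0.15 at 8 h (SE, edgeR adjusted p = 1.00 and 0.858). Without 0 h replicate 2 the log2 fold changes were 0.13 and 0.12.

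Per length, Slc17a6 was below Slc17a7 in every library. The ratio of Slc17a6 to Slc17a7, from CPM per kilobase of exon, was 0.643, 0.487 and 0.742 at 0 h, 0.539, 0.669 and 0.980 at 1 h, and 0.610, 0.697 and 0.696 at 8 h. The lowest ratio at each light time fell in the library with the most Neurod6. That library also held the most Slc17a7 at that time, so the ratio is not a separate observation. At 8 h the summed cortical and hippocampal markers did not set it apart (23.0 and 23.1 CPM in replicates 1 and 2). Slc17a8, the third member of the transporter family, did not exceed 0.752 CPM in any library and was not tested. Of 13 listed relatives of the members (among them Slc17a8, Foxp1, Foxp4, Gbx1, Zfhx2, Zfhx4, Prkca, Prkcb, Prkce, Prkch and Prkcq), 11 were tested and 0 passed in any comparison (edgeR). At an unadjusted p under 0.05 there were 0 at 1 h, 2 at 8 h and 1 between 8 h and 1 h, beside 3.2%, 10.2% and 8.9% of all tested genes. The median log2 fold changes of these relatives were -0.05, -0.10 and -0.03. Prkca, a conventional protein kinase C, had the largest log2 fold change at 8 h among them (-0.51 ± 0.22, SE, adjusted p = 0.475), and -0.19 ± 0.29 at 1 h (SE, adjusted p = 1.00). It reached 83.3 CPM in replicate 2 at 0 h and 73.7 CPM in replicate 1 at 1 h, against 35.0 to 45.2 CPM in the other libraries.

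Among 14 further genes of thalamic neurons (Ntng1, Plcb4, Cacna1g, Tnnt1, Necab1, Calb1, Calb2, Lhx2, Lhx9, Zic1, Zic4, Prox1, Slitrk6 and Rgs16), 0 passed at 1 h or 8 h against 0 h and 1 fell between 8 h and 1 h (edgeR). At an unadjusted p under 0.05 there were 1, 4 and 5, beside 3.2%, 10.2% and 8.9% of all tested genes. The median log2 fold changes of the 14 were 0.08, 0.04 and -0.16. The gene that fell was Rgs16, which encodes a regulator that switches off G protein signalling. It had 170, 179 and 142 CPM at 8 h and 216, 232 and 245 CPM at 1 h, a log2 fold change of -0.50 ± 0.08 (SE, edgeR adjusted p = 0.0188). Its levels at 0 h were 172, 171 and 166 CPM, and the log2 fold change at 1 h against 0 h was 0.45 ± 0.07 (SE, edgeR adjusted p = 0.165), which did not pass although the groups did not overlap. Against 0 h, the 2 largest changes at each time were those of Calb1, which encodes calbindin, and Rgs16 at 1 h (0.52 ± 0.34 for Calb1, SE, adjusted p = 1.00), and of Zic4, a zinc finger factor, and Necab1, a calcium-binding protein, at 8 h (-0.36 ± 0.09 and -0.29 ± 0.16, SE, adjusted p = 0.142 and 0.570). Prkcd and Rgs16 stood in opposite directions between 8 h and 1 h. Cacna1g, the T-type calcium channel of thalamic burst firing, lay between 628 and 769 CPM over all libraries, and Ntng1, an adhesion molecule of thalamocortical axons, between 414 and 507 CPM.

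Over the 9 libraries, the genes with the profile nearest to that of Tcf7l2 (root mean square difference of log2 CPM after removing each gene's mean) were Diap2, Med31 and Scpep1, with differences of 0.07 each among 15585 genes compared. Diap2 ran from 28.6 to 35.2 CPM. The nearest profiles to Slc17a7 were Gal3st3 and Dock4, with differences of 0.10 each. Dock4 was highest, like Slc17a7, in 0 h replicate 2 (131 CPM) and 1 h replicate 1 (125 CPM).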

How the data were processed

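The authors' deposited tables give raw counts per gene and library, and these counts were used for all fits. The submitters' processing notes name GRCm38 (mm10), BWA and edgeR 3.14.0, without their roles. How reads were counted, on which annotation and whether by strand was not given in the sources used here. As for the authors' density, a signal equal to the count over exonic length and a constant per library, it was compared with the counts and not otherwise used. Their deposited fold (a ratio of light over 0 h), p-value and FDR are quoted only as theirs. Every listed gene had at least 4 reads over its 6 libraries. The 25 symbols stored as dates were restored by Entrez number.

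Counts were tested with edgeR 4.0.16 in R 4.3.3 (glmQLFit and glmQLFTest with package defaults, TMM, filterByExpr, two-sided, Benjamini-Hochberg over all tested genes, threshold 0.05), after a test on simulated data. The comparisons with 0 h used their own 6 libraries, and 8 h against 1 h used all 9. Standard errors and 95% intervals come from the F statistic. DESeq2 1.42.0, limma-voom (limma 3.58.1), other scaling, no filter, the other value of an edgeR option (legacy), a replicate block, all 9 or only 6 libraries, and fits without libraries were alternatives. The members and lists were chosen with earlier results of these data known, and the motifs were chosen after the fits. The text names all members, every list gene past the threshold, the 2 of largest change against 0 h in the 3 lists of related genes, the markers Neurod6, Gad2, Mbp and Cldn5, and the nearest 3 profiles of Tcf7l2 and Slc17a7, except some genes under this rule that are not reported here. For the marker and activity lists the 2 largest changes are not named, a narrowing made after the values were seen. Calb2, Ctnnb1, Axin2, Cacna1g, Ntng1, Opalin, Pecam1 and Slco1a4 were added after their values were seen. P-values set the difference between light times against the spread between libraries, which edgeR estimates with information from all genes. The number of mice behind a library is unclear. Levels are CPM. Floors and counts cover counting error only.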

Additional observations from a re-analysis of the deposited data

Results flagged for a closer look

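Prkcd was singled out because its change from 0 h differed between the 2 light times. Its log2 fold change against 0 h was 0.28 at 8 h and -0.07 at 1 h. The difference, tested directly between the 8 h and 1 h libraries in the fit of all 9, was 0.34 (edgeR adjusted p = 0.0409). This is the test by which Prkcd was singled out, so it adds no separate support. All 8 h libraries were above all 1 h libraries, as for 8.34% of all tested genes. DESeq2 and limma-voom also called Prkcd (adjusted p = 0.000230 and 0.0281), and it was not called in the fit of its own 6 libraries (adjusted p = 0.0530).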

How the results depend on the processing

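Members called: at 1 h against 0 h the count stayed at 0 in all 14 alternatives. At 8 h against 0 h it was 2 with DESeq2 (Prkcd and Zfhx3) and 1 (Gbx2) with a replicate block or without the high-Neurod6 libraries, and it was 0 in every fit without a single library. Between 8 h and 1 h it was 0 with a replicate block, in the fit of its own 6 libraries and without the high-Neurod6 libraries, and ran from 0 to 1 in the fits without a single library. Genes called over all genes: at 1 h the main count of 2 became 14 with DESeq2, 1 with limma-voom, 1 with legacy off, 0 with a replicate block, 0 without the high-Neurod6 libraries, and 0 to 9 without a single library. At 8 h against 0 h the main count of 90 became 275 with DESeq2 and 158 with a replicate block, and ran from 33 to 84 without a single library. Between 8 h and 1 h the main count of 94 became 197 with DESeq2 and 26 without the high-Neurod6 libraries, and ran from 20 to 127 without a single library. Signs turned in 34 of 450 member values, none of them a called one, and in 27 of these the value moved by less than its SE. The turns of 1 SE or more came without 0 h replicate 1 for Rora (-0.0022 at 1 h and -0.052 at 8 h), without 0 h replicate 2 for Slc17a7 (0.13 and 0.12) and Lef1 (-0.078 at 1 h), and without 1 h replicate 3 for Foxp2 (-0.057 at 1 h) and Gbx2 (0.53, 8 h against 1 h). In the fits without a single library, the other ends of these ranges were 0.16 and 0.10 for Rora and -0.28 for Slc17a7 at 1 h. Those of Foxp2 and Gbx2 were 0.39 and -0.32. Without the high-Neurod6 libraries, Rora reached 0.19 at 1 h. Prkcd between 8 h and 1 h gave 0.34 with a replicate block (adjusted p = 0.0691), and its other lost calls are given with the gene. The causes were not tested. The libraries were fitted as unpaired in the main fits, and whether their numbers pair them is not known. Deviations from the group means correlated from -0.21 to 0.19 for same-numbered libraries and from -0.23 to 0.27 for others. With group means of 3 libraries, these correlations cannot exclude pairing. The legacy option is on by default in this edgeR version, and legacy off was added after both had been seen. Replicates of 3 limit what can be called, and changes within the intervals given cannot be resolved.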
